A study of Rattus norvegicus with 12 samples.

Results

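The sciatic nerve, a mixed peripheral nerve of the hind limb, was set against the spinal cord over all arrays of both tissues. These arrays were 8 of the 12 in a series on acrylamide in young rats, chosen by their titles: 4 of sciatic nerve and 4 of spinal cord. The remaining 4 arrays, of cerebellum, were used only as a level to set cerebellar and peripheral genes beside. The animals were male Wistar rats, which the sample labels give as 25 days old and the series text as 3 weeks old at the start. They received acrylamide (30 mg/kg per day by oral gavage) or the vehicle, which is named both saline and solvent. The dosing period is given as 21 days in one place, and tissue collection as 21 days after treatment in another. The 4 groups were sciatic nerve with acrylamide, sciatic nerve with saline, spinal cord with acrylamide and spinal cord with saline, with 2 arrays each. Each array carried cRNA from the pooled tissue of 2 rats, so the spread measured here is between pools. Right and left nerves were collected, and the labels do not say whether a nerve and a cord pool came from the same animals. In pieces of whole tissue, fewer cells of a type and less RNA per cell cannot be told apart, and this holds for every difference given here.

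Both tissues hold myelinated axons, but different glia make the myelin. In peripheral nerve a myelinating Schwann cell wraps a segment of 1 axon, lays down a basement membrane around itself and depends on the transcription factor EGR2. In the central nervous system an oligodendrocyte wraps many axons without a basement membrane and depends on MYRF, among astrocytes and microglia. The nerve is bundled by the perineurium and held in collagen, whereas the cord has little fibrillar collagen and a matrix of hyaluronan, lecticans and tenascin-R. Neuron cell bodies lie in the cord and in ganglia, so a nerve contains axons and almost no neuronal nuclei.

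Of 20360 probe sets with a mean signal above 110 in either tissue, 2229 (10.9%) were called higher in nerve and 3141 (15.4%) lower in nerve. A call means a Benjamini-Hochberg adjusted p under 0.05 in limma and at least a 2-fold difference, with treatment as a block. Counts for gene lists below are descriptions to read against these shares. Of 708 listed genes that passed this filter, 64 did so only through nerve and 114 only through cord. Such genes had to differ, so for lists with many of them the calls among genes above 110 in both tissues are given too. Signals are the deposited linear values in arbitrary units, differences are log2 of nerve minus cord on signals with 16 added, and ± is the standard error of the fit. The median difference over all probe sets tested was 0.0404. Values per array are given for acrylamide replicates 1 and 2 and then saline replicates 1 and 2 of a tissue. Where the dimmer tissue had a mean under 110, a fold is a lower bound computed with 110 in place of lower values. Array medians were 161 to 182 in nerve and 190 to 199 in cord. Correlations between arrays over all probe sets tested were at least 0.952 within the nerve and at least 0.977 within the cord, and at most 0.786 between the tissues.

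The 4 chosen markers followed the labels in part. Prx encodes periaxin, a scaffold protein of Schwann cells, and had signals of 19666, 18215, 19743 and 25094 on nerve arrays and 5059, 3626, 5925 and 7312 on cord arrays. Pmp2 encodes the P2 lipid-binding protein of peripheral myelin and had 13265, 15639, 12986 and 18342 in nerve and 2674, 2645, 4646 and 5213 in cord. Every nerve array lay above every cord array for both genes, yet the cord signals were far from background, as described below. Mog, a surface protein of oligodendrocyte myelin, had 274, 16.3, 286 and 13.8 in nerve and 6687, 7004, 6203 and 6313 in cord. Aqp4, the water channel of astrocyte endfeet, had 2362, 87.2, 1499 and 93.3 in nerve and 16038, 15138, 13804 and 13103 in cord. In nerve, Mog and Aqp4 were high on both replicate 1 arrays and low on both replicate 2 arrays. Limma called Prx (1.95 ± 0.14, adjusted p = 8.96e-06) and Pmp2 (2.04 ± 0.18, adjusted p = 2.19e-05) higher in nerve. Mog (-6.10 ± 0.81, adjusted p = 0.000243) and Aqp4 (-5.01 ± 1.04, adjusted p = 0.00285) were called lower, at -7.72 and -7.09 without the nerve arrays numbered 1.

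**Figure D1:**
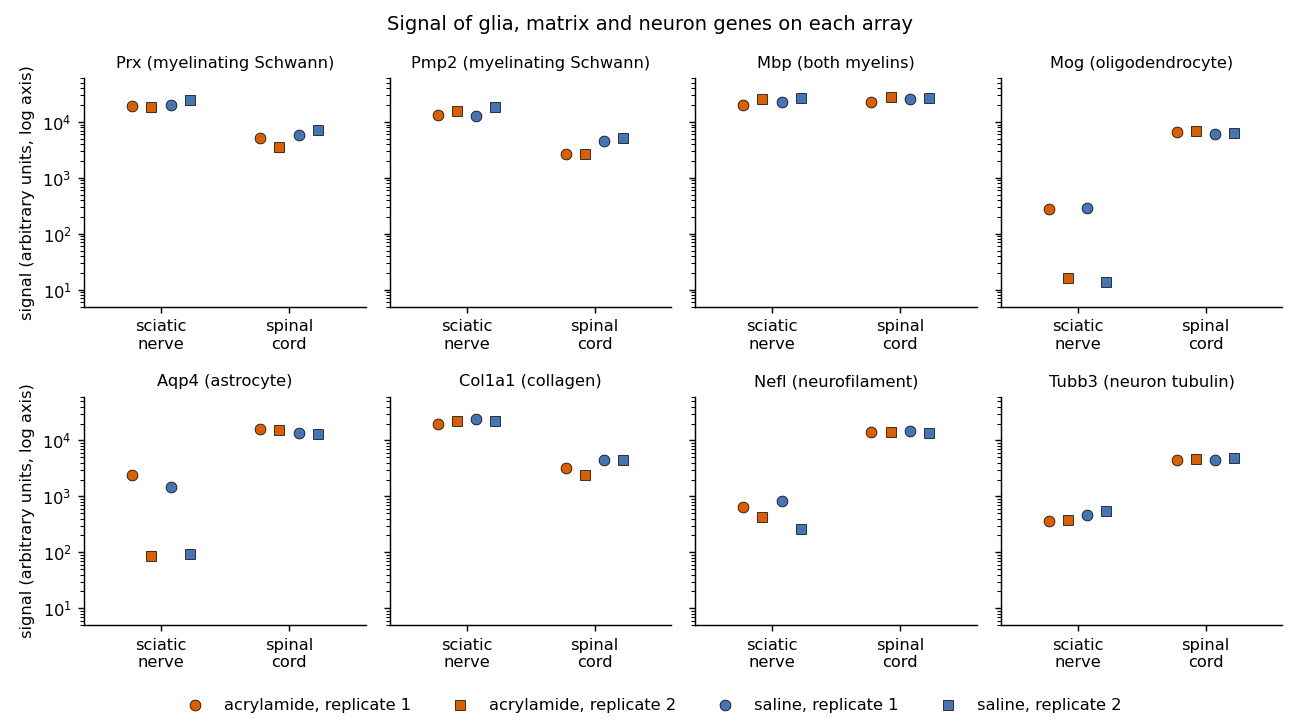
Signal (arbitrary units, log axis) of 8 genes on the 4 sciatic nerve arrays (left in each panel) and the 4 spinal cord arrays (right); colour gives the treatment and shape the replicate number. Prx, Pmp2 and Col1a1 lie higher in nerve, Mog, Aqp4, Nefl and Tubb3 lower, and Mbp overlaps; Mog and Aqp4 split the nerve arrays by replicate number.

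Several arrays stood apart in genes of neighbouring tissue. Gabra6, a GABA receptor subunit of cerebellar granule neurons, had signals of 2537, 145, 1882 and 146 on nerve arrays and of 10.9 or less on cord arrays. The Purkinje cell gene Pcp2 had 2294, 148, 1597 and 162 in nerve and 54 to 90 in cord, and was called higher with all arrays but not when any 1 of 6 arrays was left out (1.95 to 2.77). The granule neuron factor Neurod1 had 2585, 116, 2140 and 173 in nerve and 19 to 38 in cord. Over 16 cerebellar genes on the array, the summed signal was 18382, 2286, 14294 and 2452 on nerve arrays, 3927, 4289, 3751 and 3222 on cord arrays and 98244 to 107830 in cerebellum. Both nerve arrays numbered 1 lay above both numbered 2 for all 12 cerebellar genes that passed the filter, against 21.8% of all probe sets tested. The choroid plexus gene Ttr, a thyroxine carrier, was split in the same way, at 2918, 261, 2618 and 337 in nerve and 76 to 145 in cord. Lists of central neurons and glia are therefore given below with their counts without the 2 nerve arrays numbered 1 as well. Of the 12 cerebellar genes 5 were called higher and 2 lower, against 2 higher and 5 lower without these arrays. Of the 12, 5 passed the filter only through nerve and 1 only through cord. Among the 6 above 110 in both tissues 1 was called higher and 1 lower with all arrays. What brought cerebellar genes onto the nerve arrays numbered 1 was not tested.

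**Figure D2:**
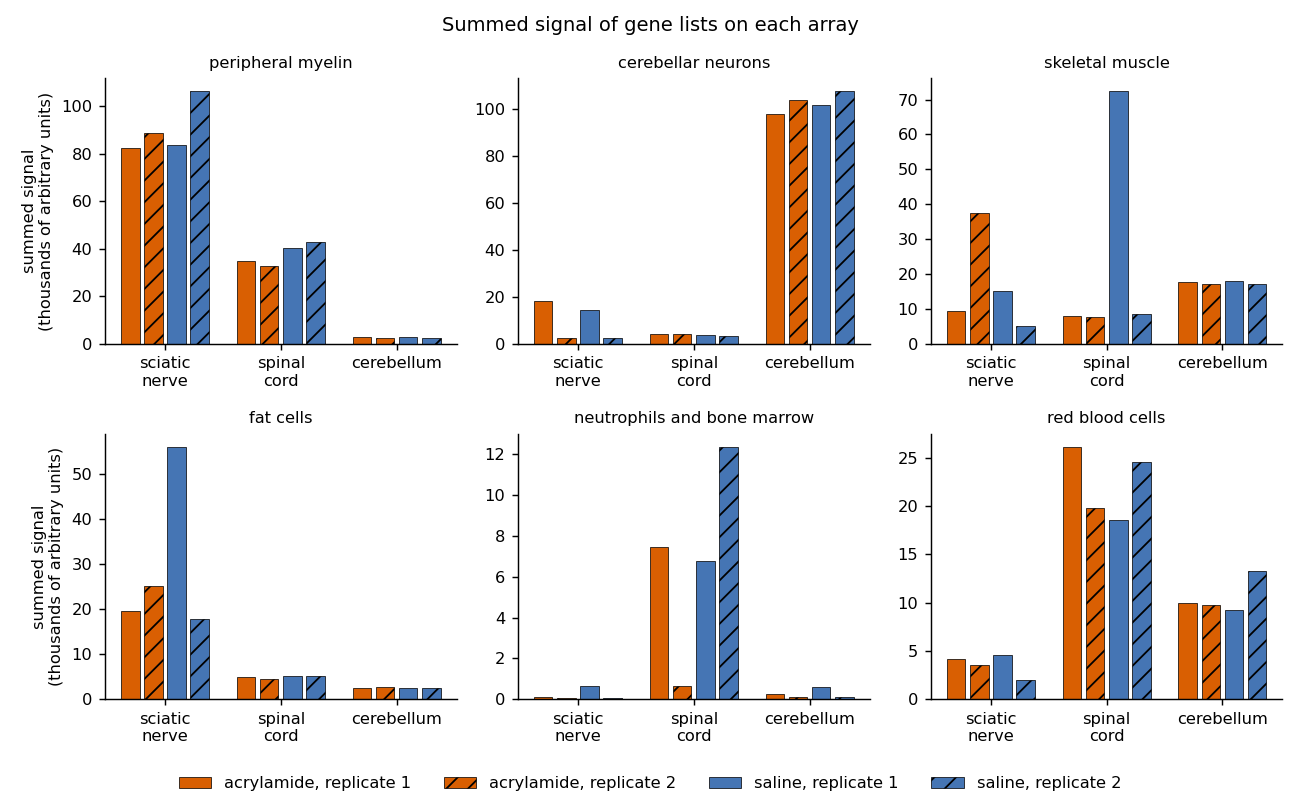
Summed signal (arbitrary units, scaled as the axis states, bars from 0) of 6 gene lists on each sciatic nerve, spinal cord and cerebellum array; colour gives the treatment and hatching marks replicate 2. Cerebellar genes are raised on the nerve arrays numbered 1, muscle genes on spinal cord saline replicate 1 and nerve acrylamide replicate 2, fat genes on nerve saline replicate 1, and neutrophil genes on 3 of 4 cord arrays.

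Skeletal muscle and fat genes varied by array within a tissue. Acta1, the actin of skeletal muscle, had signals of 519, 7532, 1692 and 202 in nerve and 209, 212, 13974 and 375 in cord. Creatine kinase Ckm had 298, 3696, 971 and 103 in nerve and 62, 61, 6876 and 108 in cord. None of the 18 muscle genes that passed the filter was called (21 were on the array), but 7 were called higher without cord saline replicate 1, among them Ckm (2.87) and the myosin gene Myh4 (3.70), and 9 with acrylamide arrays alone. The muscle sum was 9248, 37411, 15198 and 5025 on nerve arrays and 7973, 7642, 72450 and 8364 on cord arrays. Fat cell genes were high on every nerve array and highest on saline replicate 1. Fabp4, a lipid carrier of adipocytes, had 2855, 4222, 10281 and 1857 in nerve and 16.3, 2.1, 45.5 and 20.3 in cord. It was at least 35.4-fold higher in nerve (6.85 ± 0.50, adjusted p = 9.59e-06). Of 14 fat genes that passed, 10 were higher and none lower (3 of the 7 above 110 in both tissues), among them the hormone gene Adipoq (5.77 ± 0.46), the lipid droplet genes Cidec (4.93 ± 0.67) and Plin1 (3.58 ± 0.47), and lipoprotein lipase Lpl (3.61 ± 0.24). The fat sum was 19675, 25040, 56100 and 17863 in nerve and 4421 to 5155 in cord.

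The probe sets with the largest log2 differences included genes of fat cells, a mast cell and a collagen gene on the nerve side, and genes of central glia and neurons on the cord side. By log2 difference, which for dim genes depends on the value added, Fabp4 was followed in nerve by Col9a1 (5.83 ± 0.50), Adipoq, Dmbt1 (5.69 ± 0.24), carbonic anhydrase Car3 (5.38 ± 0.70), the carboxylesterase gene Ces1d (5.29 ± 0.62), Gabra6 (4.94 ± 0.96), Cidec, the mast cell protease gene Mcpt1l1 (4.88 ± 0.35), adipsin Cfd (4.82 ± 0.44), Meox2 (4.72 ± 0.16) and Obp3 (4.52 ± 0.51). Gabra6 belongs to the cerebellar genes above, and Adipoq, Cidec and Cfd, like Fabp4, are on the list of fat cell genes. The lowest in nerve after Mog were Mobp (-6.02 ± 0.74), the serotonin receptor gene Htr2c (-5.83 ± 0.52), Aqp4 on a dimmer probe set (-5.78 ± 0.61), Edil3 (-5.72 ± 0.53) and Fabp7 (-5.66 ± 0.61). They were followed by the protease gene Klk6 (-5.60 ± 0.48), secretogranin Scg2 (-5.46 ± 0.57), the RNA-binding protein gene Elavl2 (-5.42 ± 0.31), the neurofilament gene Nefh (-5.36 ± 0.52), chromogranin Chga (-5.32 ± 0.63) and the choline transporter gene Slc5a7 (-5.27 ± 0.26). For each of these 24 probe sets the 2 tissues did not overlap, which the rule for naming them required. On the brightest probe set of Mobp, a gene of compact central myelin, the difference was -4.89 ± 0.77.

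Peripheral myelin genes were higher in nerve as a list, about 4-fold for most. All 10 on the array passed the filter, 7 were called higher and none lower, with a median of 1.99. EGR2 drives peripheral myelination, and Egr2 had signals of 4071, 4440, 3237 and 4832 in nerve and 640, 459, 808 and 1117 in cord (2.49 ± 0.23, adjusted p = 2.90e-05). Drp2, which joins periaxin in a complex with dystroglycan, had 11484, 12264, 11065 and 14068 in nerve and 2563, 1801, 2657 and 3102 in cord (2.29 ± 0.14, adjusted p = 3.73e-06). The claudin gene Cldn19 had 3953, 4636, 3289 and 6061 in nerve and 880, 654, 941 and 1442 in cord (2.20 ± 0.23). Dhh encodes the hedgehog ligand by which Schwann cells organise the perineurium, and was at 2.27 ± 0.16. Every nerve array lay above every cord array for 8 of the 10 genes, these 4 included, and Gjb1 and Mpzl2 overlapped. The share of such probe sets over all tested is not given here, so this order is no result about the list. Pmp22, a structural protein of compact peripheral myelin, was close in both tissues, with 24192, 27888, 28299 and 31477 in nerve and 19937, 20801, 22637 and 21680 in cord (0.39 ± 0.06). The connexin gene Gjb1, used by both myelinating glia, was not called (-0.23 ± 0.18, adjusted p = 0.282).

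The sequence just upstream of 2 of these genes is shown because the members moved together and EGR2 binds DNA at GC-rich sites. Both are from RefSeq, assembly GRCr8, written 5′ to 3′ on the strand of the gene and ending at the base before its start. Egr2 is at chr20:21054442-21054691 (minus strand), with capitals for a CArG box, the site of serum response factor, 83 bases before the start. Prx is at chr1:91914221-91914420 (plus strand) and holds neither motif searched.
Egr2: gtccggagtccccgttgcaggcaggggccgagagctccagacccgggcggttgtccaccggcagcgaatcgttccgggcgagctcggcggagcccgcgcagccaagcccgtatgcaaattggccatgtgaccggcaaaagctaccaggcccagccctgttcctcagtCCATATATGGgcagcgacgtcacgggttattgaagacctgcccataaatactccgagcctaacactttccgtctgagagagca
Prx: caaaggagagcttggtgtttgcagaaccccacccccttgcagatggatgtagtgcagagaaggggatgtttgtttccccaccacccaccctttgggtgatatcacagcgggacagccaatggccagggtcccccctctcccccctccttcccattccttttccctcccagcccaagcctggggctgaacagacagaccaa
The EGR motif searched was GCGNGGGCG on either strand. Of 33469 upstream windows 1436 (4.29%) hold it, and 0 of the 7 windows found for peripheral myelin genes and 2 of 8 for Schwann lineage genes do (Scn7a and Plekha4). The CArG box is in 501 windows (1.5%), in 1 of 7 peripheral myelin windows (Egr2), 2 of 19 skeletal muscle windows (Acta1 and Myh4), 2 of 17 oligodendrocyte windows (Nkx2-2 and Aspa) and 0 of 10 smooth muscle windows. A match describes letters in a window and nothing about binding.

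Schwann lineage genes were split between genes that differed and genes shared by both glia. Of 16 on the array 12 passed the filter, and 6 were called higher and 1 lower, with a median of 1.13. Scn7a, a sodium channel-like gene of Schwann cells, had signals of 22408, 21236, 20138 and 24868 in nerve and 4913, 3092, 5315 and 6750 in cord (2.19 ± 0.18, adjusted p = 1.69e-05). The semaphorin gene Sema3b (2.31 ± 0.17), Plekha4 (2.35 ± 0.17) and the adhesion receptor gene Adgrg6, which starts Schwann cell myelination (1.99 ± 0.14), were higher by similar amounts. S100b, a calcium-binding protein of Schwann cells and astrocytes, had 22380, 24924, 23293 and 27963 in nerve and 20159, 23292, 21900 and 21601 in cord (0.18 ± 0.08, adjusted p = 0.0674). Sox10, the factor that both myelinating glia need, was at 0.62 ± 0.15, under the fold required. N-cadherin Cdh2 was lower in nerve (-1.12 ± 0.14), and was under the fold required without nerve acrylamide replicate 2.

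Genes by which axons instruct Schwann cells differed by role. The axonal ligand gene Nrg1 was lower in nerve, with signals of 72, 87, 66 and 60 on nerve arrays and 348, 404, 435 and 369 on cord arrays (-2.22 ± 0.13, at least 3.52-fold). The receptor genes Erbb2 and Erbb3 were higher in nerve. Erbb2 had 465, 500, 472 and 569 in nerve and 106, 37, 109 and 115 in cord (2.34 ± 0.25), and Erbb3 was at 1.27 ± 0.18. Of the 5 probe sets of Nrg1 that passed the filter, 4 were called lower and 1 was not called. The Schwann cell signal Lgi4 was higher in nerve (1.27 ± 0.10), and its receptor gene Adam22 was lower (-2.72 ± 0.61). Among factors downstream, Pou3f1 (1.49 ± 0.26), Tead1 (1.95 ± 0.09) and the EGR2 partner gene Nab2 (1.25 ± 0.10) were higher, and Nab1 (0.87 ± 0.11) and Zeb2 (0.49 ± 0.06) were under the fold required. Nab1 was called higher without the nerve arrays numbered 1 (1.03). In all, 10 of the 19 that passed were called higher and 3 lower, the third being the protease gene Bace1 (-1.07 ± 0.21). Bace1 was no longer called without nerve acrylamide replicate 1 (-0.94), without nerve saline replicate 1 (-0.92) or without both (-0.72).

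Genes of injured or non-myelinating Schwann cells did not form 1 direction. Of 15 on the array 9 passed the filter, 4 were higher and 3 lower (2 higher and 3 lower among the 7 above 110 in both tissues). Aqp1 (3.67 ± 0.25), the ligand gene Shh (3.16 ± 0.25, at least 1.63-fold), the stress factor gene Atf3 (2.48 ± 0.14) and the adhesion gene Chl1 (1.81 ± 0.09) were higher in nerve. Shh had signals of 187, 263, 101 and 205 in nerve, against 4.9 to 7.3 in cord. Gap43 (-2.19 ± 0.38), Ncam1 (-1.97 ± 0.07) and Sox2 (-1.15 ± 0.13), which neurons or astrocytes of the cord also express, were lower. Jun was at 0.70 ± 0.13, and Gdnf and Bdnf did not pass the filter.

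The cord arrays carried peripheral nerve genes at a level that differed between arrays. Prx in cord was 24.5, 17.5, 28.7 and 35.4% of its nerve mean, and Pmp2 17.8, 17.6, 30.9 and 34.6%. The same was computed for 10 more genes, chosen after their values were seen: Drp2, Cldn19, Egr2, Dhh, Scn7a, Sema3b, Plekha4, the trophic factor gene Cntf, E-cadherin Cdh1 and Sostdc1. Over the 12 genes the cord arrays ranged between 6.84 and 35.4% of the nerve mean. Acrylamide replicate 2 was the lowest cord array and saline replicate 2 the highest for 12 of 12 genes. Both saline arrays lay above both acrylamide arrays for 11 of 12, an order found in 16.4% of all probe sets tested. That share is no yardstick here, because 10 of the 12 genes were chosen after their values were seen. All 12 were also read on the same cord arrays, so they are not separate cases. The counts of array order describe the chosen genes and are no result about treatment. In cerebellum the same genes were at 8.61% or less. What brought these genes onto the cord arrays was not tested. Over the peripheral myelin list the summed signal was 82302, 88588, 83647 and 106480 in nerve and 34619, 32861, 40093 and 42967 in cord.

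**Figure D3:**
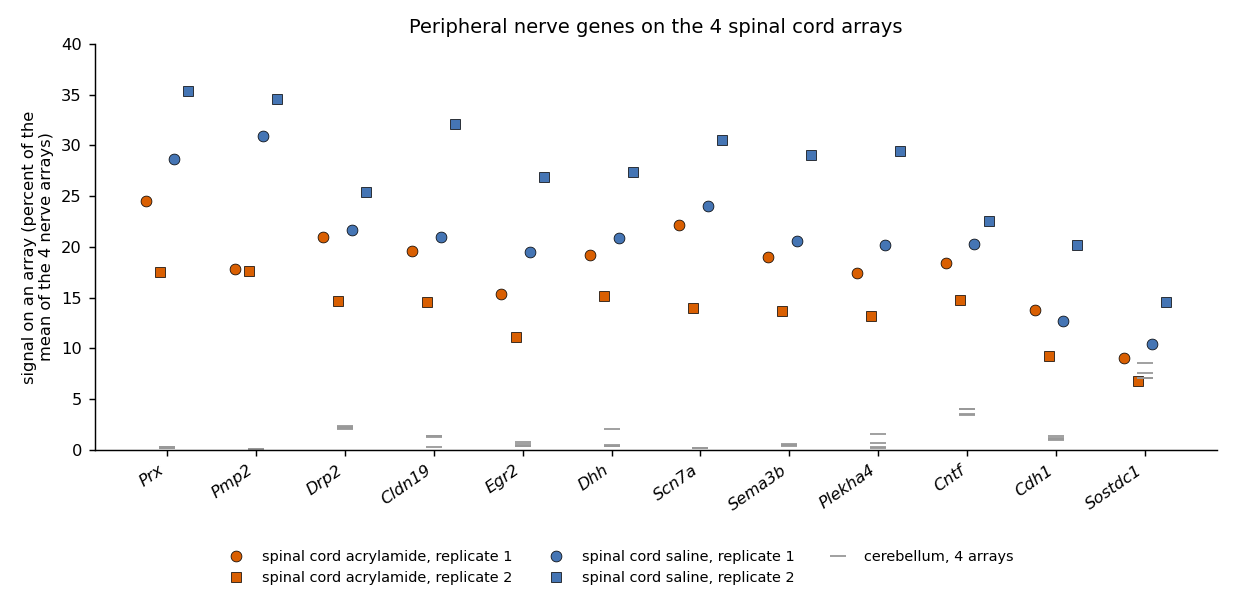
Signal of 12 peripheral nerve genes on each spinal cord array as a percent of the mean of the 4 sciatic nerve arrays (linear axis from 0); colour gives the treatment, shape the replicate number, and grey dashes are the 4 cerebellum arrays. Cord values lie between 6.84 and 35.4%, with saline replicate 2 highest for each of the 12 genes.

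Oligodendrocyte genes of the central nervous system were lower in nerve, many by more than 10-fold. Of 22 on the array all passed the filter, 16 were called lower and 2 higher, with a median of -3.52 (-3.70 without the nerve arrays numbered 1, and again 16 lower). Among the 17 above 110 in both tissues 11 were lower and 2 higher. Myrf, the master regulator of central myelin, had signals of 196, 143, 137 and 142 in nerve and 2187, 2086, 1704 and 1950 in cord (-3.56 ± 0.10, adjusted p = 6.31e-07). Hapln2, a hyaluronan link protein of central nodes, had 257, 227, 228 and 224 in nerve and 2813, 3594, 2356 and 2844 in cord (-3.53 ± 0.11). Neither gene split the nerve arrays by replicate number as Mog did. Olig1 had 258, 100, 301 and 83 in nerve and 5465, 5016, 5263 and 5609 in cord (-4.91 ± 0.37), and Ermn (-4.35 ± 0.25), Opalin (-5.23 ± 0.51), the tight junction gene Cldn11 (-3.71 ± 0.29), Nkx2-2 (-3.94 ± 0.19) and Nkx6-2 (-4.00 ± 0.16) were lower too. For 12 of the 22 genes both nerve arrays numbered 1 lay above both numbered 2. The 2 genes higher in nerve were the actin-severing protein gelsolin, Gsn (1.51 ± 0.15), and the cytokine gene Il33 (1.27 ± 0.16), which other cells express as well. Apod, a lipocalin of both glia and nerve fibroblasts, had 20760, 24981, 21445 and 17654 in nerve and 19892, 21442, 21705 and 20289 in cord (0.02 ± 0.09).

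For most myelin genes used by both glia the difference between the tissues was under 2-fold. Of 17 on the array, all of which passed the filter, 3 were called higher, 1 lower and 13 neither, with a median of 0.37. Over all probe sets tested 10.9% were higher and 15.4% lower, so the number of calls does not set this list apart. Mbp, the basic protein of both myelins, had signals of 19915, 25353, 23018 and 26288 in nerve and 22862, 28485, 26093 and 26670 in cord (-0.14 ± 0.10, adjusted p = 0.223). Cnp, a myelin phosphodiesterase, was at -0.27 ± 0.09 (adjusted p = 0.0238), with 11154, 11460, 10641 and 14312 in nerve and 13961, 14692, 14056 and 14391 in cord. Mag, the adhesion protein on the inner surface of myelin, was the gene lower in nerve, with 2727, 2417, 2561 and 3683 against 8707, 9956, 8185 and 7919 in cord (-1.62 ± 0.14, adjusted p = 2.05e-05). Mal (1.09 ± 0.10), the tetraspanin Cd9 (2.14-fold) and the small heat shock protein Cryab (1.13 ± 0.09) were higher. The enzymes of myelin galactolipids, Ugt8 (0.31 ± 0.07), Fa2h (0.45 ± 0.12) and Gal3st1 (0.37 ± 0.11), all stayed under the fold required. Both nerve arrays numbered 1 lay below both numbered 2 for 10 of the 17, against 18.3% of all probe sets tested.

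Astrocyte and precursor genes followed the oligodendrocyte genes. Of 27 astrocyte genes that passed the filter, 21 were lower and 1 higher, with a median of -2.59 (-2.94 without the nerve arrays numbered 1, and again 21 lower and 1 higher). Gfap, the astrocyte filament protein, had signals of 3405, 2449, 1980 and 1718 in nerve and 16358, 17468, 15071 and 14796 in cord (-2.77 ± 0.13, adjusted p = 1.48e-06). The glutamate transporter gene Slc1a2 had 6.2 or less in nerve and 326, 366, 267 and 350 in cord (-4.17 ± 0.17), at least 2.95-fold. Fgfr3 (-3.14 ± 0.14), Cldn10 (-4.65 ± 0.15), the glycine transporter gene Slc6a9 (-3.60 ± 0.17) and the membrane pump subunit Atp1b2 (-1.76 ± 0.06) were lower with little spread. The gene that was higher in nerve was F3, tissue factor (2.28 ± 0.29). Of 12 oligodendrocyte precursor genes that passed, 8 were lower and 1 higher, and again without the nerve arrays numbered 1 (3 lower and 1 higher among the 7 above 110 in both tissues). The higher one was the proteoglycan gene Cspg4, which pericytes also express, at 1.51 ± 0.10, with its companion marker Pdgfra, a receptor of fibroblasts too, at 0.95 ± 0.11 (1.05 and called without nerve saline replicate 2). Ependymal cilia genes were lower for 6 of 8 with and without the nerve arrays numbered 1, among them Foxj1 (-2.10 ± 0.32) and Tekt1 (-1.79 ± 0.13). That count was 4 without nerve saline replicate 2. Of the 8 genes 6 passed only through cord and 1 only through nerve, so the filter nearly fixed this count. The 1 gene above 110 in both tissues was lower.

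**Figure D4:**
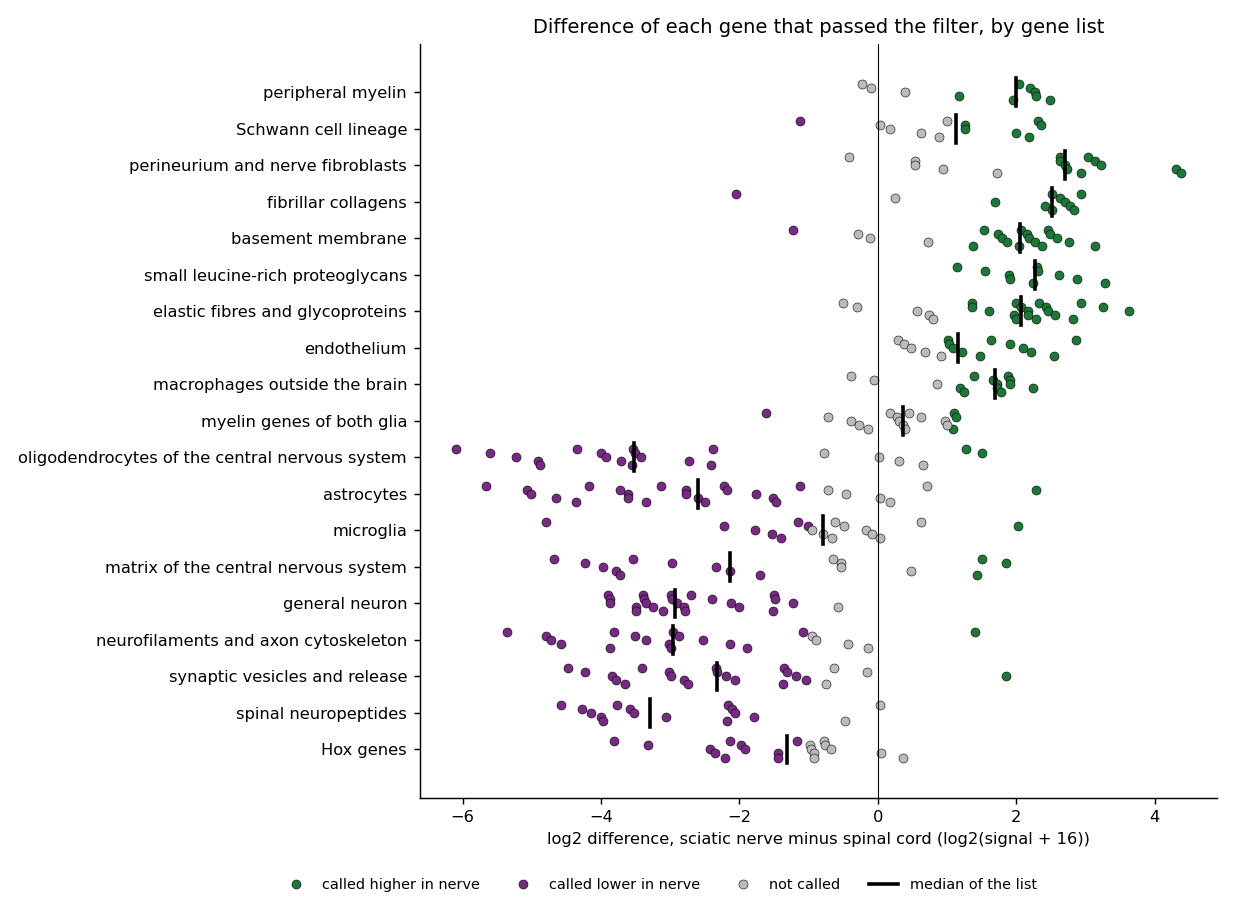
Log2 difference (sciatic nerve minus spinal cord) of each gene that passed the filter in 19 gene lists; green points were called higher in nerve, purple points lower, grey points neither, and the black bar is the median of the list. Lists of peripheral glia, matrix, vessels and macrophages lie mostly to the right of 0, lists of central glia, neurons and Hox genes mostly to the left, and myelin genes of both glia around 0.37.

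Most extracellular matrix genes were higher in nerve. Over the fibrillar collagens, all 11 on the array passed the filter, 9 were higher and 1 lower, with a median of 2.52. Col1a1 encodes type I collagen, and its signals were 19540, 22198, 23775 and 22547 in nerve and 3166, 2443, 4484 and 4415 in cord (2.64 ± 0.12, adjusted p = 1.52e-06). Col3a1 (2.70 ± 0.12), Col5a1 (2.83 ± 0.12), Col5a3, a collagen of Schwann cells (2.52 ± 0.17), and Col24a1 (2.94 ± 0.20) were alike. Col11a2 was the exception, with 75, 70, 77 and 65 in nerve and 353, 378, 288 and 372 in cord (-2.05 ± 0.12, at least 3.14-fold). The cartilage chain Col2a1 was higher in nerve on every array, with 3146, 2495, 3219 and 5078 against 434, 376, 693 and 1254 in cord.

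Basement membrane genes were higher in nerve for 16 of 20 that passed and lower for 1, with a median of 2.06. The laminin chains of the Schwann cell sheath, Lama2 (2.19 ± 0.11), Lama4 (2.77 ± 0.14), Lamb1 (2.60 ± 0.18), Lamb2 (2.27 ± 0.06) and Lamc1 (1.87 ± 0.10), were all higher. Lamb2 had signals of 5558, 6060, 5476 and 5353 in nerve and 1162, 1066, 1186 and 1185 in cord. Lama1 was lower in nerve, with 66, 62, 82 and 55 against 164, 184, 232 and 132 in cord (-1.23 ± 0.19). The type IV collagens Col4a1 (2.49 ± 0.11) and Col4a2 (2.37 ± 0.13), perlecan Hspg2 (2.16 ± 0.12) and Smoc2 (3.14 ± 0.24) were higher, and agrin Agrn was not called (-0.28 ± 0.08). Receptors for this membrane moved the same way. Integrin Itgb4, which anchors mature Schwann cells, had 11688, 13483, 12457 and 13511 in nerve and 2350, 1777, 2450 and 2875 in cord (2.45 ± 0.12), and its partner Itga6 (1.71 ± 0.12), Itga7 (1.87 ± 0.08), Itgb1 (1.38 ± 0.09) and dystroglycan Dag1 (2.06 ± 0.11) were higher. Of 25 integrins and receptors that passed, 13 were higher and none lower.

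Among other collagens 13 of 17 that passed were higher and 2 lower. Of the 12 above 110 in both tissues 11 were higher and none lower. The type VI chains Col6a1 (3.12 ± 0.16), Col6a2 (2.77 ± 0.18) and Col6a3 (3.20 ± 0.17), Col14a1 (3.01 ± 0.16) and Col16a1 (1.75 ± 0.06) were higher. Col9a1 had signals of 1029, 3851, 2028 and 1189 in nerve and 3.7, 10.2, 10.9 and 52.1 in cord, at least 16-fold, while its partner chains were apart from it: Col9a3 was at 1.07 ± 0.14, a call lost without nerve saline replicate 2 (0.94) or cord saline replicate 1 (0.98), and Col9a2 was not called (-0.21 ± 0.09). The neuronal transmembrane collagen Col25a1 (-2.85 ± 0.14) and Col19a1 (-2.46 ± 0.31) were lower. All 10 small leucine-rich proteoglycans that passed were higher, with a median of 2.27, from biglycan Bgn (1.14 ± 0.11) to asporin Aspn (3.28 ± 0.27). Decorin Dcn had 20544, 25434, 24594 and 19008 in nerve and 7111, 6352, 9073 and 7915 in cord (1.56 ± 0.13).

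Elastic fibre and glycoprotein genes were higher for 18 of 23 that passed and lower for none. Thbs4, a thrombospondin of tendon and nerve sheath, had signals of 6997, 10216, 5573 and 5309 in nerve and 586, 483, 453 and 630 in cord (3.63 ± 0.18, adjusted p = 1.92e-06). Fibrillin Fbn1 (3.26 ± 0.17), fibulin Fbln2 (2.33 ± 0.10), fibronectin Fn1 (2.28 ± 0.22) and tenascin Tnc (2.83 ± 0.30) were higher. Postn, periostin, was called (2.46 ± 0.71) with 548, 642, 6358 and 476 in nerve and 139 to 243 in cord, and saline replicate 1 was far above the others. It was no longer called without nerve acrylamide replicate 2 and cord saline replicate 1 together (2.58). Enzymes that fold and crosslink collagen were higher for 11 of 16, among them the chaperone Serpinh1 (2.04 ± 0.09), Pcolce (2.78 ± 0.15) and lysyl oxidase Lox (3.04 ± 0.25). Matrix proteases and inhibitors were higher for 12 of 19 and lower for 2, with the inhibitor Timp1 (2.35 ± 0.11), Mmp23 (2.85 ± 0.14) and the aggrecanase Adamts5 (2.86 ± 0.18) higher and Adamts4, an enzyme of oligodendrocytes (-1.15 ± 0.07), and Mmp16 (-1.20 ± 0.13) lower.

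The matrix genes of the central nervous system were lower for 10 of 17 that passed, with 3 higher (3 lower and 2 higher among the 8 above 110 in both tissues). Brevican Bcan had signals of 141, 78, 160 and 56 in nerve and 2749, 3043, 2947 and 3173 in cord (-4.68 ± 0.27, at least 23.1-fold). Tenascin-R Tnr (-3.72 ± 0.27), aggrecan Acan (-1.70 ± 0.15), the link protein Hapln4 (-3.78 ± 0.31) and the proteoglycan Spock1 (-4.23 ± 0.38) were lower. The 3 higher in nerve were Cspg4, the hyaluronan synthase Has2 (1.43 ± 0.21) and reelin, Reln, a secreted glycoprotein best known from cortical layering, with 9592, 9701, 8317 and 9815 in nerve and 2758, 2440, 2435 and 2694 in cord (1.85 ± 0.07). Both nerve arrays numbered 1 lay above both numbered 2 for 8 of these 17 genes, and without them the counts were again 10 lower and 3 higher.

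Perineurial and fibroblast genes were higher for 10 of 15 that passed and lower for none, with a median of 2.71. Of the 11 above 110 in both tissues 7 were higher. Cldn1, the claudin that seals the perineurium, had signals of 1813, 2572, 1910 and 1412 in nerve and 209, 197, 261 and 196 in cord (3.04 ± 0.18, adjusted p = 3.23e-06). Dermatopontin Dpt (4.39 ± 0.37) and the Wnt inhibitor Sfrp4 (4.31 ± 0.42) were higher by the largest amounts in the list, and Mfap5 (2.94 ± 0.11) and Igfbp6 (2.63 ± 0.14) had the smallest errors among those called. Dpt had 2971, 4395, 6366 and 1632 in nerve and 117 to 171 in cord. Slc2a1, the glucose transporter of perineurium and of brain vessels, was at 0.54 ± 0.08, under the fold required.

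Nearly all general neuron genes were lower in nerve. Of 24 general neuron genes, all on the array and past the filter, 23 were called lower and none higher, with a median of -2.94 (-3.56 and again 23 without the nerve arrays numbered 1). Snap25, a fusion protein of nerve endings, had signals of 7298, 533, 5794 and 758 in nerve and 15333, 16538, 16627 and 16024 in cord (-2.97 ± 0.84, adjusted p = 0.0129), and was no longer called without nerve acrylamide replicate 2 and cord saline replicate 1 together (-2.02). Synaptophysin Syp had 592, 107, 526 and 113 in nerve and 2990, 3231, 3096 and 2731 in cord (-3.49 ± 0.55). Map2 had 1395, 181, 1136 and 291 in nerve and 7508 to 8813 in cord (-3.87 ± 0.61). These 3 were high on both nerve arrays numbered 1, and 20 of the 24 genes had both of those arrays above both numbered 2. Tubb3, a neuron-specific tubulin, had 368, 379, 462 and 550 in nerve and 4461, 4733, 4381 and 4807 in cord, with no such split (-3.36 ± 0.10, adjusted p = 6.49e-07). Uchl1, a ubiquitin hydrolase abundant in axons, had 1510, 1862, 1538 and 2026 in nerve and 8461, 9823, 9258 and 9022 in cord (-2.40 ± 0.10). Camk2b was the member under the fold required (-0.57 ± 0.09).

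Upstream windows of 2 synaptic vesicle genes are shown because both hold the EGR motif. They are from RefSeq, assembly GRCr8, 250 bases ending at the base before the start, with the motif (reverse strand of GCGNGGGCG) in capitals. Syn1 is at chrX:3725495-3725744 (plus strand) and Syp at chrX:17536450-17536699 (minus strand).
Syn1: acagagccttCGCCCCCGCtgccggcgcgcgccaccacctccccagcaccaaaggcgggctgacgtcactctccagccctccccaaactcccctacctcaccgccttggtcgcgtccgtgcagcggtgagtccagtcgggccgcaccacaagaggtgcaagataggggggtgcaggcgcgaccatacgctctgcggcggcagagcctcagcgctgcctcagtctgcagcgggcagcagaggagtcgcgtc
Syp: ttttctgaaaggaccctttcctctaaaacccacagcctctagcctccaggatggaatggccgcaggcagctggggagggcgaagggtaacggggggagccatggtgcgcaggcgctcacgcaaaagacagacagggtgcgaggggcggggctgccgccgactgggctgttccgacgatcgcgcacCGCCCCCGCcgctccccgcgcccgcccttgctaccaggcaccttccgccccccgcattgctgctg
The motif is in 8 of the 19 windows found for general neuron genes and in 4.29% of all windows. The median GC content was 66.0% for these 19 windows, 58.4% for the 7 of peripheral myelin genes, 61.2% for the 8 of Schwann lineage genes, of which 2 hold the motif, and 51.2% for all. No difference between these sets was tested, and the motif and GC content cannot be told apart here.

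Neurofilament genes had some of the largest differences between the tissues. Nefl, the light chain, had signals of 632, 431, 834 and 258 in nerve and 13872, 13988, 14630 and 13842 in cord (-4.79 ± 0.31, adjusted p = 5.12e-06). Nefm had 1118, 565, 1420 and 508 in nerve and 21201, 22740, 22940 and 21993 in cord (-4.73 ± 0.31). Nefh had 495, 148, 1062 and 200 in nerve and 14685, 15471, 15984 and 15209 in cord. Peripherin Prph, the intermediate filament of peripheral and motor neurons, had 327, 332, 440 and 364 in nerve and 2614, 2743, 2828 and 2884 in cord (-2.88 ± 0.08, adjusted p = 6.31e-07). On nerve arrays Prph was 11.8, 12.0, 15.9 and 13.1% of its cord mean, and Nefh 3.23, 0.966, 6.92 and 1.31%. Of 21 axon cytoskeleton genes that passed, 16 were lower and 1 higher, with a median of -2.97 (-3.28 without the nerve arrays numbered 1). Both nerve arrays numbered 1 lay above both numbered 2 for 12 of the 21, Nefl, Nefm and Nefh among them, against 21.8% of all probe sets tested. The kinesin Kif5a (-2.97 ± 0.25), tau Mapt (-3.81 ± 0.32) and Map1a (-2.52 ± 0.07) were lower. Map1b (-0.96 ± 0.05), Dpysl2 (-0.43 ± 0.05) and ankyrin Ank3 (-0.14 ± 0.12) stayed under the fold required, and Map1b was at 48.7 to 55.5% of its cord mean on each nerve array. Spectrin Sptb was higher in nerve (1.41 ± 0.10). Map1b had 3 probe sets that passed, of which 2 were called lower.

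**Figure D5:**
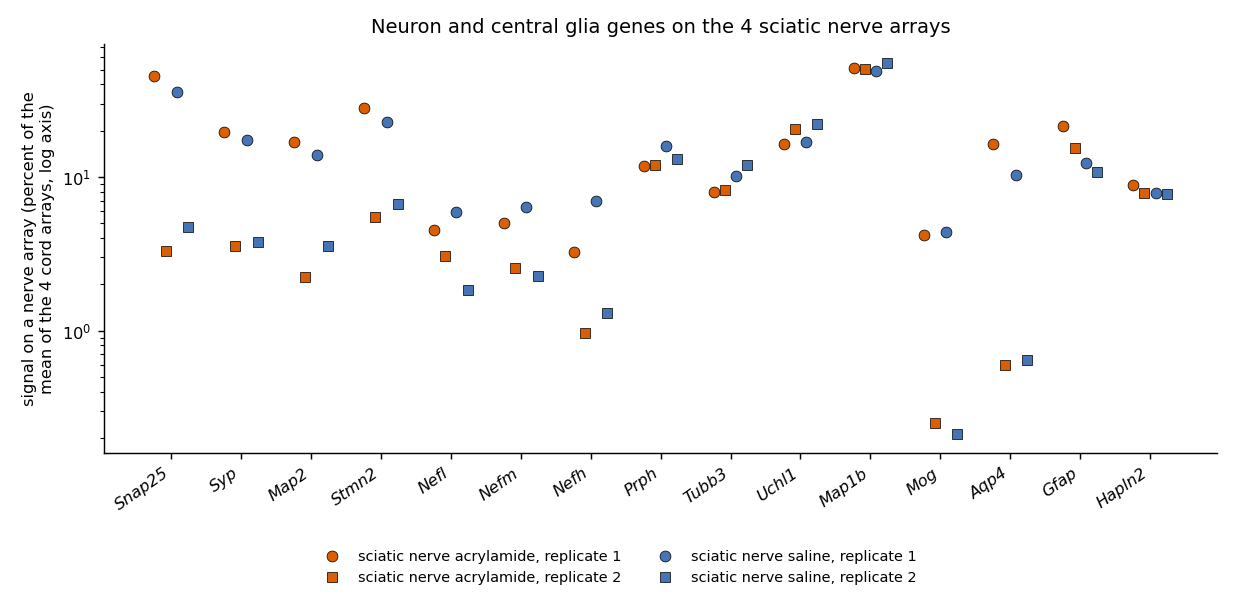
Signal of 15 neuron and central glia genes on each sciatic nerve array as a percent of the mean of the 4 spinal cord arrays (log axis); colour gives the treatment and shape the replicate number. Snap25, Syp, Map2, Stmn2, Nefl, Nefm, Nefh, Mog and Aqp4 lie higher on the arrays numbered 1 than on those numbered 2. Prph, Tubb3, Uchl1, Map1b and Hapln2 keep all 4 nerve arrays close together.

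Synaptic genes were lower for 19 of 23 that passed and higher for 1, with a median of -2.32 (18 lower and a median of -2.56 without the nerve arrays numbered 1). Of the 17 above 110 in both tissues 13 were lower and 1 higher. Dynamin Dnm1 (-1.37 ± 0.06), Sh3gl2 (-2.20 ± 0.10) and Vamp1 (-3.84 ± 0.28) were lower, and Syngr1 was higher (1.85 ± 0.13). Sv2b overlapped between tissues (-0.15 ± 0.14), with 5012, 3920, 4480 and 6661 in nerve and 5340, 5612, 5561 and 5346 in cord, and its other probe set was called lower. Genes of inhibitory transmission were lower for 10 of 14 (11 without the nerve arrays numbered 1, and 3 of the 6 above 110 in both tissues), among them Gabra5 (-4.34 ± 0.16) and the glycine receptor Glra2 (-3.74 ± 0.22). Genes of glutamate transmission were lower for 16 of 20, with a median of -2.09 (15 and -2.84 without the nerve arrays numbered 1, and 8 of the 11 above 110 in both tissues). The vesicular glutamate transporter of spinal neurons, Slc17a6, had 116, 33, 188 and 65 in nerve and 3623, 3597, 3708 and 3448 in cord (-5.15 ± 0.37). Its relative of cerebellar granule neurons, Slc17a7, had 351, 39, 254 and 78 in nerve and 50 to 107 in cord, and was not called (0.82 ± 0.58), though it was called higher without nerve acrylamide replicate 2 (1.36).

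Motor neuron and peptide genes separated the tissues sharply. Choline acetyltransferase Chat had signals of 4.0, 23, 25 and 14 in nerve and 485, 552, 533 and 586 in cord (-4.14 ± 0.23, at least 4.89-fold). The vesicular acetylcholine transporter Slc18a3 (-4.32 ± 0.27) and Slc5a7 were lower alike. Of 11 motor and cholinergic genes that passed, 9 were lower and 2 higher, with the same counts without the nerve arrays numbered 1 (4 lower and 2 higher among the 6 above 110 in both tissues). The higher ones were the GDNF receptor Gfra1 (1.02 ± 0.10, under the fold required when any of 4 single arrays was left out) and osteopontin Spp1 (1.39 ± 0.12), which Schwann cells also express, at 16253, 20241, 16049 and 21675 in nerve and 6074, 7059, 7050 and 7976 in cord. Neuropeptide genes were lower for 14 of 16 that passed and higher for none, and for 14 again without the nerve arrays numbered 1. Of these genes 11 passed only through cord, and 3 of the 5 above 110 in both tissues were lower. Calca, which encodes the peptide CGRP of sensory and motor neurons, had 69, 47, 100 and 42 in nerve and 1500, 1946, 1755 and 2166 in cord (-4.57 ± 0.22, at least 16.6-fold). Cck (-3.76 ± 0.11), the enkephalin gene Penk (-3.53 ± 0.31) and Npy (-2.07 ± 0.12) were lower, and Vip (-0.47 ± 0.34) and Npff (0.04 ± 0.14) were not called. Of 15 sensory ganglion genes on the array only 7 passed the filter, and Scn10a, Scn11a, P2rx3, Runx3 and Trpm8 were too dim in both tissues. Of the 7, 3 were called lower and 1 higher, and 1 of the 4 above 110 in both tissues was lower. The higher gene was the heat-gated channel Trpv1 (1.08 ± 0.15), which passed only through nerve, at 115 to 129 in nerve and 40 to 60 in cord.

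Genes of the node of Ranvier did not share 1 direction. Contactin Cntn1 (-3.89 ± 0.42), the paranodal protein Cntnap1 (-3.14 ± 0.46), its juxtaparanodal relative Cntnap2 (-3.29 ± 0.19), Scn8a, the sodium channel of mature nodes (-2.24 ± 0.27), and spectrin Sptbn4 (-3.51 ± 0.53) were lower in nerve. Cntnap2 had signals of 203, 102, 148 and 126 in nerve and 1407, 1704, 1607 and 1387 in cord. Ezr, ezrin, and Msn, moesin, which link membranes to actin in Schwann cell microvilli, were higher. Ezr had 2295, 2552, 1979 and 2668 in nerve and 630, 599, 656 and 711 in cord (1.84 ± 0.11, adjusted p = 3.08e-06), and Msn was at 1.34 ± 0.06. The third member of that family, radixin Rdx, was not called and overlapped (0.17 ± 0.07), with 2495, 2390, 2437 and 2528 in nerve and 2440, 2058, 2101 and 2155 in cord. Nfasc, made by neurons and glia, was at -0.38 ± 0.12. The potassium channel Kcna1 was not called (0.15 ± 0.09), with 2619, 2377, 2527 and 3310 in nerve and 2368, 2405, 2491 and 2427 in cord, whereas Kcna2 was at -0.67 ± 0.11. Of 17 node genes that passed, 8 were lower and 2 higher, and the counts were the same without the nerve arrays numbered 1 (3 lower and 2 higher among the 12 above 110 in both tissues). One gene of this list, Adam23, had probe sets called in opposite directions, 2 lower and 1 higher. Voltage-gated channels as a list were lower for 13 of 19 and higher for none, and for 15 of 19 without the nerve arrays numbered 1. Of the 13 channel genes above 110 in both tissues 8 were lower. In the whole list Kcnab2 (-3.87 ± 0.16), Scn4b (-4.90 ± 0.32) and Hcn2 (-1.92 ± 0.12) were among the lower genes.

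Trophic factors differed by ligand. Cntf, ciliary neurotrophic factor, had signals of 14448, 15984, 13969 and 17723 in nerve and 2859, 2303, 3150 and 3511 in cord (2.40 ± 0.11, adjusted p = 1.52e-06). Fgf1 (1.26 ± 0.10), Fgf7 (1.89 ± 0.24), Ntf3 (2.15 ± 0.30, at least 1.27-fold) and Igf1 (1.63 ± 0.40) were higher, and Fgf9 (-2.53 ± 0.39) and Fgf13 (-3.41 ± 0.30) lower. Igf1 had 1773, 2571, 4400 and 1050 in nerve and 513 to 875 in cord, highest on the array with the highest fat sum. The receptors parted in the same way, with Gfra1 higher and Ret (-2.36 ± 0.17) and Ntrk2 (-1.20 ± 0.10) lower. Ngfr, the low-affinity neurotrophin receptor, was at 0.88 ± 0.22, and was called without nerve saline replicate 1 (1.08) or cord saline replicate 1 (1.02). Of 17 genes that passed, 6 were higher and 4 lower.

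Among transcription factors of position and lineage, calls were mostly lower in nerve for Hox and neural genes and higher for mesenchymal genes. Hox genes, which mark position along the body axis in neurons, glia and mesenchyme, were lower for 11 of 20 that passed and higher for none, with a median of -1.31 (5 of the 12 above 110 in both tissues, and 13 of 20 without the nerve arrays numbered 1). Hoxd10 had signals of 44, 19, 78 and 39 in nerve and 693, 706, 932 and 844 in cord (-3.81 ± 0.22, at least 7.16-fold), and Hoxd9 (-1.97 ± 0.11), Hoxb2 (-2.14 ± 0.15) and Hoxc8 (-2.35 ± 0.17) were lower too. Hoxc4 (0.05 ± 0.11) and Hoxc5 (0.37 ± 0.15) were not called. Neural factors were lower for 6 of 9 that passed (1 of the 4 above 110 in both tissues, and 7 of 9 without the nerve arrays numbered 1) and higher for 1, Ebf1 (2.17-fold). The lower ones included Pax2 (-3.88 ± 0.30) and Irx3 (-2.66 ± 0.17). Mesenchymal factors were higher for 8 of 13 and lower for none (2 of the 6 above 110 in both tissues). Meox2, a homeobox gene of mesenchyme and vessels, had 1647, 2306, 2104 and 1503 in nerve and 64, 45, 62 and 52 in cord (4.72 ± 0.16, at least 16.9-fold, adjusted p = 7.62e-07). Klf5 (3.23 ± 0.17), Tbx18 (2.95 ± 0.16) and Twist1 (1.68 ± 0.19) were higher.

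Most vessel genes were higher in nerve, and calls among blood-brain barrier genes were near the shares over all probe sets tested. Of 16 endothelial genes that passed, 11 were higher and none lower, with a median of 1.15. Pecam1, an adhesion protein between endothelial cells, had signals of 1281, 1760, 1806 and 1333 in nerve and 220, 268, 240 and 263 in cord (2.55 ± 0.14, adjusted p = 2.35e-06). Plvap, the diaphragm protein of leaky vessels, had 1943, 2495, 2744 and 1588 in nerve and 376, 440, 512 and 489 in cord (2.21 ± 0.18). Emcn (2.10 ± 0.09), Kdr (1.63 ± 0.07) and Sox17 (1.91 ± 0.10) were higher. Over 15 blood-brain barrier genes 1 was higher, 3 were lower and 11 were not called, with a median of -0.05. Over all probe sets tested 10.9% were higher and 15.4% lower, so these counts do not set the list apart. Cldn5, the claudin of barrier vessels (0.38 ± 0.12), Mfsd2a (-0.23 ± 0.15), Abcb1a (0.19 ± 0.16) and Slco1a4 (0.12 ± 0.14) were among those not called. Slco1c1, a thyroxine carrier of brain vessels and astrocytes, was lower (-4.87 ± 0.61), with 187, 19, 183 and 25 in nerve and 2450 to 2629 in cord. Smooth muscle and pericyte genes were higher for 9 of 15, with Myh11 at 2.49 ± 0.13, Tagln at 2.61 ± 0.14 and Pdgfrb at 1.63 ± 0.13, and Rgs5 (0.41 ± 0.26) and Notch3 (0.49 ± 0.12) not called. Of the 12 smooth muscle and pericyte genes above 110 in both tissues 7 were higher.

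Counts for genes of resident immune cells differed by kind of cell. Cx3cr1 (-1.77 ± 0.14), P2ry12 (-1.40 ± 0.14) and Sall1 (-4.80 ± 0.14), which mark microglia, were lower in nerve. Of 17 microglia genes that passed, 7 were lower and 1, Olfml3 (2.03 ± 0.29), higher. The count of lower genes was 10 without the nerve arrays numbered 1, 11 without nerve saline replicate 1 and 6 without nerve acrylamide replicate 1. Of the 17 genes 5, Sall1 among them, passed only through cord. Among the 12 above 110 in both tissues 2 were lower and 1 higher, near the shares of all probe sets tested (15.4% and 10.9%). Sall1 had signals of 37, 27, 38 and 21 in nerve and 1401, 1331, 1157 and 1184 in cord. Genes of macrophages outside the brain were higher for 11 of 14 and lower for none (3 with saline arrays alone and 11 with acrylamide arrays alone), with Stab1 (1.91 ± 0.18), Mrc1 (1.72 ± 0.37) and Lyve1 (1.78 ± 0.36) among them. Of the 11 macrophage genes above 110 in both tissues 8 were higher. Mrc1 had 693, 779, 1482 and 351 in nerve and 236, 175, 236 and 203 in cord, highest on saline replicate 1 and lowest on saline replicate 2. MHC class II genes were higher for 5 of 7, led by RT1-Db1 (2.43 ± 0.28) and the invariant chain Cd74 (1.71 ± 0.24), and their sum was 11202, 13697, 19373 and 6727 in nerve and 3425 to 4788 in cord. Of 6 mast cell genes that passed, 5 did so only through nerve, and the other, Gata2, was not called (0.59 ± 0.12). Among the 5 the protease Cma1 was at 191, 332, 585 and 325 in nerve and 8.6 or less in cord (4.04 ± 0.27, at least 3.01-fold). Complement divided within the cascade. C1r (2.53 ± 0.19), C1s (2.41 ± 0.14) and their inhibitor Serping1 (2.08 ± 0.18) were higher, and C3 was lower, with 161, 136, 195 and 73 in nerve and 2792, 3095, 1745 and 2190 in cord (-4.01 ± 0.25, adjusted p = 4.11e-06).

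Neutrophil and red cell genes were lower in nerve, and neutrophil genes were uneven over the cord arrays. S100a9, a calcium-binding protein of neutrophils, had signals of 44, 43, 254 and 34 in nerve and 3951, 367, 3261 and 5950 in cord (-4.81 ± 0.77). All 4 neutrophil genes that passed did so only through cord and were lower, and their list's sum in cord was 7484, 657, 6790 and 12384. The bone gene Bglap, osteocalcin, had 3.6 or less in nerve and 121, 2.8, 511 and 561 in cord. Acrylamide replicate 2, the cord array lowest in peripheral nerve genes, was also the lowest for S100a9, the neutrophil sum and Bglap. It was not the lowest for the red cell sum, which was 26136, 19827, 18528 and 24573 in cord. Hemoglobin Hbb (-2.62 ± 0.23) and 4 more red cell genes were lower in nerve, and none was higher. Of the red cell genes 3 passed only through cord, and the 2 above 110 in both tissues were lower. The remaining lists were small: of 4 lymphocyte genes that passed 1 was lower, of 7 meningeal genes 3 were higher and 2 lower, of 4 choroid plexus genes 2 were higher, and of 6 cartilage and bone genes 2 were higher and 2 lower. Above 110 in both tissues were 2 lymphocyte genes (not called), 2 choroid plexus genes (higher) and 1 cartilage and bone gene (higher).

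Most genes of lipid synthesis were not called, which also holds for all probe sets tested (10.9% higher and 15.4% lower). The counts of higher genes in the synthesis lists therefore do not set them apart. Of 18 cholesterol synthesis genes that passed, 2 were higher and none lower, with a median of 0.32: Nsdhl (1.16 ± 0.12) and Idi1 (1.01 ± 0.08, and 0.92 with no call without nerve saline replicate 2). Sqle, a rate-setting enzyme, had signals of 2495, 2498, 2667 and 3468 in nerve and 2731, 2572, 2957 and 3174 in cord (-0.05 ± 0.08). Of 20 genes of fatty acid and sphingolipid synthesis 1 was higher, Fads2 (1.17 ± 0.12), and none was lower, with a median of 0.42. Of 8 fatty acid-binding and retinoid-binding protein genes that passed, 3 were higher and 3 lower (2 and 2 among the 6 above 110 in both tissues). Fabp4, Pmp2 and Crabp2 (1.84 ± 0.19) were higher, and Fabp3 (-1.85 ± 0.36) and Crabp1 (just past the fold required) lower. Crabp1 was no longer called without nerve saline replicate 2 (-0.94), cord acrylamide replicate 1 (-0.89) or cord saline replicate 1 (-0.88). Fabp7, the form of astrocytes and radial glia, was also lower, at 314, 35, 224 and 39 in nerve and 6889, 7013, 5310 and 5719 in cord. Fabp5 was at -0.66 ± 0.08. Of 5 epithelial genes that passed, 2 were higher, the keratin gene Krt5 (1.31 ± 0.14) and Cdh1. Among the 5, 3 passed only through nerve, and 1 of the 2 above 110 in both tissues was higher. Cdh1, which Schwann cells use in their own membrane loops, had 5427, 5830, 4781 and 7694 in nerve and 816, 548, 755 and 1201 in cord (2.85 ± 0.21), and Sostdc1, a BMP and Wnt inhibitor, had 10032, 9525, 9246 and 10054 in nerve and 881, 665, 1007 and 1421 in cord (3.32 ± 0.17, adjusted p = 1.95e-06).

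Whether the difference between the tissues depended on treatment was tested with an interaction of tissue and treatment. Limma called 0 of 20360 probe sets (0%), with 394 at an unadjusted p under 0.05 and a smallest adjusted p of 1. With 2 arrays per group the precision is low. The 6 genes with the smallest p are given as values. Nr1d1, a repressor of the circadian clock, had signals of 599, 622, 185 and 149 in nerve and 262, 319, 193 and 169 in cord. Acrylamide minus saline was 1.78 in nerve and 0.63 in cord, and the interaction was 1.15 ± 0.23. Hoxb6 had 121, 145, 286 and 259 in nerve and 1113, 1098, 1172 and 986 in cord, with an interaction of -0.99 ± 0.20. The others were 6330403K07Rikl (-0.92 ± 0.16), Sptssb (-1.82 ± 0.33), Syndig1l (1.47 ± 0.27) and Fam163b (-1.14 ± 0.23). For each of the 6 both acrylamide arrays of the nerve lay above or below both saline arrays. Picking genes by the smallest p favours such an order, so it is no separate result. None of the 6 passed the adjustment.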

How the data were processed

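Biotin-labelled cRNA was hybridised to 1-colour Affymetrix rat arrays, per the labels. The deposited values are linear intensities. The submitters' processing notes name GCOS 1.1, and neither the summary algorithm nor a scaling target is stated in the labels. With 2% trimmed from each end the deposited means lay between 500.13 and 500.15 on the 8 arrays. Of 31099 probe sets, 20826 had 1 gene symbol in the platform annotation, 436 several and 9780 none, and 57 were controls. Upstream sequences came from RefSeq.

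Here 16 was added, log2 taken, and limma 3.58.1 (R 4.3.3, eBayes with an intensity trend) fitted treatment and tissue over 8 arrays, with 5 residual degrees of freedom and Benjamini-Hochberg adjustment over 20360 probe sets whose mean signal exceeded 110 in either tissue. A second fit added the interaction. The fit was tested on simulated data. The number of arrays limits the precision, with a median standard error of 0.12, and p-values measure the spread between pools of 2 rats. A gene is given by its brightest probe set. Of 983 listed genes in 54 lists, 840 were on the array and 708 passed the filter. For 24 of the 208 genes with several tested probe sets the calls differed.

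The lists and members were chosen with earlier results of these data known. Genes were named as the 12 largest differences in each direction, as up to 5 members of each list with the smallest p, as members whose role a description needed, and as the 6 smallest interaction p-values. Alternatives changed the scaling, pseudocount, filter, fold minimum, treatment term, replicate block and arrays used.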

Additional observations from a re-analysis of the deposited data

Results flagged for a closer look

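Dixon's test was run on the summed signal of each gene list over the 4 arrays of a tissue, and flagged 3 of 108 groups. Chance flags about 1 in 20 groups.

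On spinal cord saline replicate 1 the skeletal muscle sum was 72450, against 7642 to 8364.2 on the other cord arrays. On spinal cord acrylamide replicate 2 the sum of elastic fibre and glycoprotein genes was 9016.4, below 10271 to 10306 on the others. On sciatic nerve saline replicate 2 the sum of meningeal genes was 5870.8, below 8694.4 to 9405.8 on the other nerve arrays. What set these arrays apart was not tested.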

How the results depend on the processing

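The counts of probe sets called higher and lower in nerve (2229 and 3141) stayed within 1.5 times under every alternative run except 3. With 1 probe set per gene, which tests fewer, they were 1315 and 1650. With limma's treat test against a 2-fold difference they were 1213 and 1965, and with no fold minimum 7237 and 6801. Leaving out each array in turn gave 2159 to 2295 higher and 3057 to 3277 lower. Without both nerve arrays numbered 1 the counts were 2399 and 3412, and without the 2 arrays with most muscle signal 2167 and 2967. Saline arrays alone gave 2072 and 3015, and acrylamide arrays alone 2336 and 2973. The replicate block gave 2235 and 3152, and moved neither count past 1.5 times. Same-numbered nerve and cord arrays deviated with r = 0.0843 under acrylamide and 0.222 under saline, so the numbers were not taken to pair them. The share of calls that were higher was 41.5%, and 49.9% after median centring, which moved the median of all probe sets to 0.183. The treat test called 2 macrophage genes higher (against 11), 2 microglia genes lower (against 7), 5 collagen processing genes higher (against 11), 6 endothelial genes higher (against 11) and 10 glutamate genes lower (against 16). No called probe set reversed under these alternatives. The interaction stayed at 0 calls throughout, including each array left out, with 231 to 1292 probe sets at an unadjusted p under 0.05 and a smallest adjusted p of 0.0881, reached without sciatic nerve saline replicate 2. Of the list medians under alternatives, 41 moved by more than the spread between arrays and 1200 did not. Among named genes, 97 values lost their call under an alternative, 17 gained one and 6815 kept their call or their lack of one. The cause of these changes was not tested.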
